A study of Zea mays subsp. mays x Zea mays subsp. mexicana with 20 samples.

Results

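Small RNAs of maize pollen come in part from abundant clusters of intermediate length, and 654 such loci were examined here. They were chosen from the 85421 small RNA clusters of the deposited pollen table by 2 limits, a length above 50 bp and under 10 kb and a mean of at least 100 CPM over the 6 libraries of the table. The 654 loci made up 0.766% of all clusters. A cluster is a stretch of genome over which aligned small RNA reads were grouped, and CPM is the number of reads of a locus per 1000000 counts of its library. Both limits used the values themselves, so the high abundance of the loci is a description and not a finding. All 654 loci lay on the 10 chromosomes and none on an unplaced scaffold.

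Plants make most small interfering RNAs (siRNAs) by cutting double-stranded RNA with Dicer-like (DCL) enzymes. DCL2 is known for 22-nt siRNAs, which it cuts from long hairpin transcripts and from double strands that an RNA-dependent RNA polymerase has copied, and such siRNAs can set off further rounds of silencing. Other Dicer-like enzymes cut the precursors of microRNAs and the 24-nt siRNAs that direct DNA methylation to transposons, and in the absence of one enzyme another can cut the same precursor. In grasses, developing anthers and pollen are rich in siRNAs that arise from discrete loci. The read lengths were pooled in the table, so a locus here could not be assigned to any one enzyme.

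The 3 genotypes were compared in pollen, each with 2 biological replicates. The dcl2T libraries came from plants homozygous for the allele of Dcl2 inherited from teosinte mexicana, which the study describes as partly functional, and which sits in a longer stretch of mexicana chromosome in lines repeatedly crossed to the maize inbred W22. The dcl2-mu1 libraries came from plants homozygous for a Mutator transposon insertion in the 5′ leader of Dcl2, also crossed repeatedly to W22. The Dcl2 libraries carried the functional allele and served as the reference, and the study states that wild-type plants segregating in its crosses were its controls. Plants of the 3 genotypes can therefore differ at sites other than Dcl2, and an effect of the allele and of linked or unlinked background cannot be told apart here. The table holds small RNA reads only, so neither the Dcl2 transcript nor pollen marker transcripts could be checked in these libraries. A lower CPM can come from fewer pollen grains that make a small RNA or from less of it per grain, and these cannot be told apart in bulk pollen.

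Total counts per library ranged from 1950081 to 4920576, and the dcl2-mu1 replicate 1 library stood apart with the lowest total and with 78.3% of all clusters at 0. The chosen loci were abundant enough to be read in nearly all libraries: 644 of 654 had reads in all 6, and 10 loci had no read in dcl2-mu1 replicate 1. All 654 passed the filter on low counts that left 22558 clusters for testing. Counts of calls without the dcl2-mu1 replicate 1 library are given beside each comparison.

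Most loci were long and lay in the lower part of the abundance range of the set, with a few extreme members. Their median length was 2312 bp, from 79 to 9934 bp, and 280 of 654 measured 2000 to under 5000 bp. Their median abundance was 296 CPM, and the mean CPM ran from 100.4 to 54464. The summed abundance was spread unevenly, and 37 of the 654 loci held 50% of it. Longer loci were hardly more abundant, with a Spearman correlation of 0.101 between length and mean CPM over the 654 loci, which share their libraries and were cut on both measures. Per kb of length, the abundance had a median of 150.3 CPM per kb, from 14.8 to 61065 CPM per kb. The 41 loci under 500 bp were the densest class, with a median of 1314 CPM per kb, against 80.8 CPM per kb in the 99 loci of 5000 bp or longer.

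**Figure D1:**
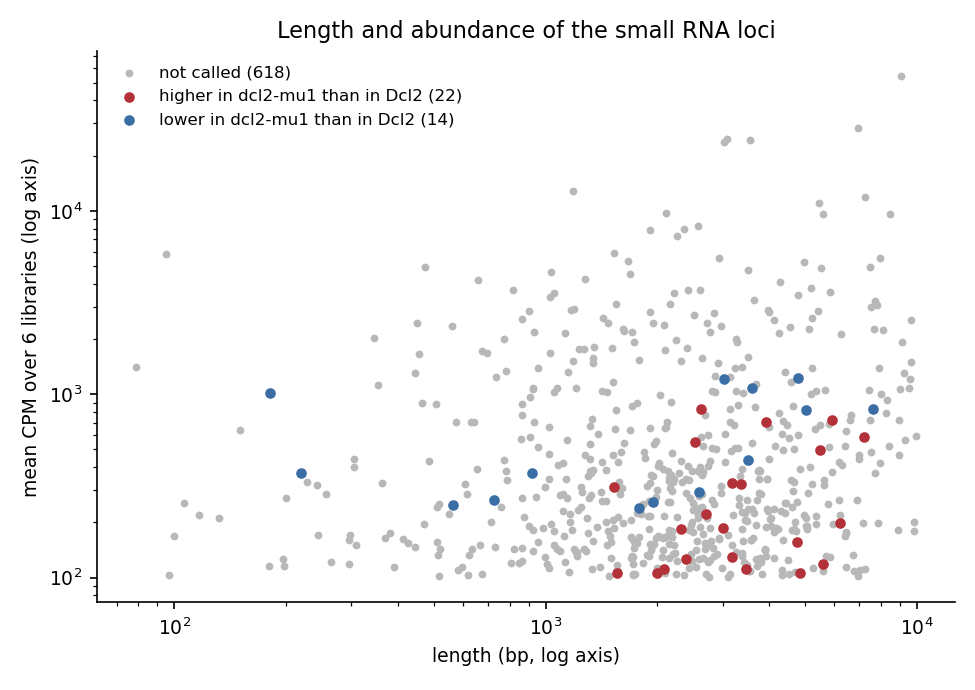
Each point is 1 of the 654 loci, with its length in bp on the x axis and its mean CPM over 6 libraries on the y axis, both log axes. Red points (22) were called higher in dcl2-mu1 and blue points (14) lower, each against Dcl2. The 22 higher loci are all at least 1526 bp long, and the loci over 5000 CPM are all grey.

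The values next to the limits show where the set ends. Cluster_6326 and Cluster_11838 entered with 100.4 and 101.5 CPM, and Cluster_58404 and Cluster_5920 stayed out with 99.6 CPM each. The shortest loci inside were Cluster_36262 with 79 bp and Cluster_57375 with 95 bp, and the nearest abundant clusters below the length limit measured 25 and 21 bp. At the upper end, Cluster_66201 with 9934 bp was inside and Cluster_59057 with 10024 bp was outside.

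Cluster_25109 (chromosome 3, 62552652 to 62561691, 9040 bp) was the most abundant locus. It had 48556 and 48318 CPM in dcl2T, 68965 and 63611 CPM in dcl2-mu1 and 49326 and 48005 CPM in Dcl2. Its level in dcl2-mu1 was 1.36 times that in Dcl2 in CPM, with no overlap between the libraries, and it was not called in any comparison. The next 4 loci lay close together in abundance, between 23689.8 and 28154 CPM on average. They were Cluster_62573 on chromosome 7, Cluster_82886 and Cluster_84598 on chromosome 10 and Cluster_41617 on chromosome 4. Of these, Cluster_41617 (chromosome 4, 249016420 to 249019972, 3553 bp) differed most between genotypes in CPM, with 21119 and 21149 CPM in dcl2T, 33364 and 29494 CPM in dcl2-mu1 and 20415 and 21036 CPM in Dcl2. Cluster_84598 (chromosome 10, 144371858 to 144374883, 3026 bp) went the other way between the mutants, with 24344 and 21751 CPM in dcl2-mu1, 28388 and 24338 CPM in dcl2T and 20931 and 22388 CPM in Dcl2, and its dcl2-mu1 and Dcl2 libraries overlapped.

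The remaining loci of the 10 most abundant averaged between 9621 and 12872 CPM. Cluster_51751 (chromosome 6, 28051761 to 28052947, 1187 bp) was the densest of the 10, at 10845 CPM per kb. It had 15874 and 15187 CPM in dcl2T, 9328 and 11601 CPM in dcl2-mu1 and 13714 and 11531 CPM in Dcl2, so its 2 dcl2-mu1 libraries lay below both dcl2T libraries. Cluster_29171 (chromosome 3, 183199906 to 183202013, 2108 bp) and Cluster_39622 (chromosome 4, 204396984 to 204402450, 5467 bp) had their lowest levels in Dcl2, with 13438 and 11568 CPM in dcl2-mu1 against 6343 and 7333 CPM in Dcl2 for Cluster_29171. Cluster_39622 had 15268 and 12492 CPM in dcl2-mu1 against 8279.8 and 8798 CPM in Dcl2. Over the 10 loci, both dcl2-mu1 libraries exceeded both Dcl2 libraries in CPM at 7, and both dcl2T libraries exceeded both Dcl2 libraries at 7. The same held at 20.6% and 27.5% of all tested clusters, and at 30.7% and 31.0% of the 654 loci. The 10 are the most abundant loci, so these shares are not compared at like counts. None of the 10 was called in any of the 3 comparisons, which scale libraries by trimmed means and not by total count. Cluster_37855 (chromosome 4, 165231438 to 165238669, 7232 bp) had the largest coefficient of variation of the 10, 34.2%, with 13029.6 and 4418 CPM in dcl2T, 13735 and 11548 CPM in dcl2-mu1 and 16611 and 12038 CPM in Dcl2.

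The 654 loci together held 72.7% ± 1.05 of the counts in dcl2T, 71.4% ± 1.64 in dcl2-mu1 and 66.9% ± 0.797 in Dcl2 (SD, n = 2 each). The single libraries gave 73.5% and 72.0% in dcl2T, 70.2% and 72.6% in dcl2-mu1, and 67.4% and 66.3% in Dcl2, and the widest of the Wilson 95% intervals, which cover counting error only, ran from 70.18% to 70.31% in dcl2-mu1 replicate 1. Both libraries of each mutant thus lay above both Dcl2 libraries. The exact two-sided permutation test gave p = 0.333 for dcl2T against Dcl2 and p = 0.333 for dcl2-mu1 against Dcl2, the smallest p that 2 against 2 libraries allow, so the design could not pass 0.05. The difference was 5.88 percentage points for dcl2T and 4.55 percentage points for dcl2-mu1. Abundant clusters of 10 kb or longer moved in the opposite direction, with 8.21% of counts in dcl2T, 10.0% in dcl2-mu1 and 16.9% in Dcl2, and a share of one class limits the share of the others.

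Abundance classes behaved unevenly within this total. The 21 loci of at least 5000 CPM held 28.9% and 27.2% of the counts in dcl2T, 31.7% and 29.95% in dcl2-mu1 and 27.4% and 25.9% in Dcl2. The 123 loci of 1000 to under 5000 CPM held 29.1% and 29.7% in dcl2T, 22.0% and 26.2% in dcl2-mu1 and 27.2% and 25.4% in Dcl2. In this class the dcl2-mu1 and Dcl2 libraries overlapped, and the fitted median log2 fold change of dcl2-mu1 against Dcl2 was -0.56, lower than in the other classes, which had medians from -0.28 to -0.14.

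**Figure D2:**
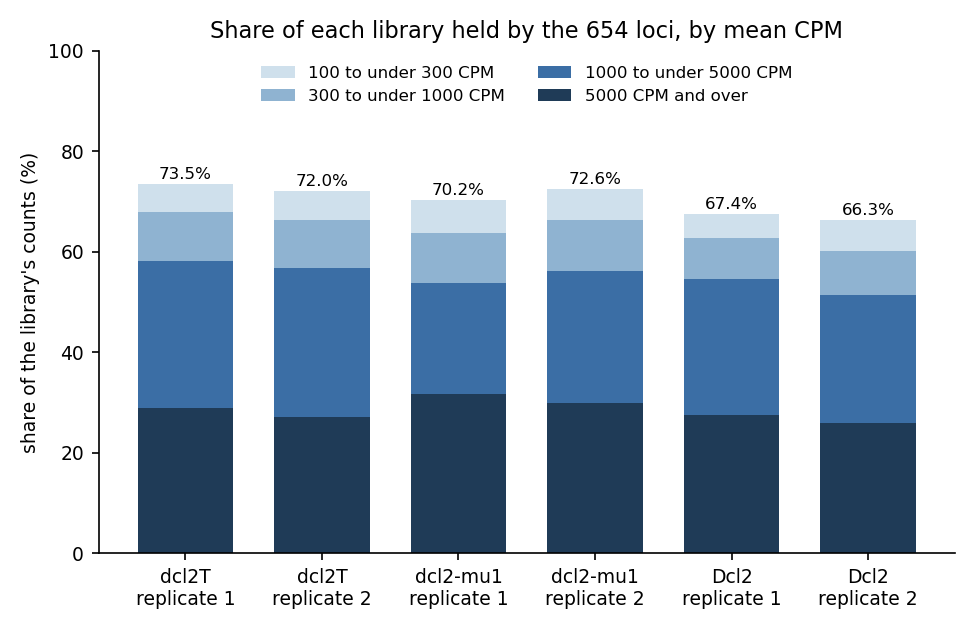
Stacked bars give the percent of the counts of each library held by the 654 loci, split by their mean CPM into 4 classes, for 2 replicates of dcl2T, dcl2-mu1 and Dcl2. The totals range from 66.3% to 73.5%, with both Dcl2 libraries lowest, and the class of 1000 to under 5000 CPM is smallest in dcl2-mu1 replicate 1.

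The mean over 6 libraries lets a locus enter through 1 genotype, so the loci were divided by the genotypes whose own mean reached 100 CPM. In 530 of 654 loci all 3 genotypes reached it. A further 86 loci reached it in 2 genotypes, which were dcl2T and dcl2-mu1 at 40 loci, dcl2T and Dcl2 at 31, and dcl2-mu1 and Dcl2 at 15. The last 38 loci reached it in a single genotype, which was dcl2-mu1 at 23, dcl2T at 9 and Dcl2 at 6. For these 38 loci the rule had already selected a difference. Of the 9 dcl2T loci, 6 lay in 2 stretches of chromosome 1, namely Cluster_135, Cluster_136 and Cluster_138 in one and Cluster_10926, Cluster_10927 and Cluster_10928 in the other. Among the 15 loci at 100 CPM in dcl2-mu1 and Dcl2, Cluster_15962 on chromosome 2 had 83.5 and 84.1 CPM in dcl2T against 235 and 249.8 CPM in Dcl2, and Cluster_42458 on chromosome 5 had 86.7 and 65.6 CPM in dcl2T against 233 and 184 CPM in Dcl2. Neither was called, and in both the dcl2T libraries lay below all others.

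A group of loci varied little between genotypes and replicates. The coefficient of variation over the 6 libraries had a median of 24.0%, and 199 of 654 loci were under 20%. Cluster_68954 (chromosome 8, 114516949 to 114519558, 2610 bp) was the steadiest at 4.13%, with 3710.4 and 3589 CPM in dcl2T, 3896 and 3478 CPM in dcl2-mu1 and 3662 and 3825 CPM in Dcl2. Cluster_30838 (chromosome 3, 218529713 to 218538010, 8298 bp) followed at 5.24%, with 983 and 969.6 CPM in dcl2T, 973 and 861 CPM in dcl2-mu1 and 908 and 907 CPM in Dcl2. Cluster_20492 and Cluster_39811 had 5.79% and 6.01%, at 1389.7 and 689.5 CPM. The 95-bp locus Cluster_57375 (chromosome 6, 165060235 to 165060329, 95 bp) was the densest of all at 61065 CPM per kb and was also steady, with 6029 and 5433 CPM in dcl2T, 5389 and 5679 CPM in dcl2-mu1 and 6755 and 5521 CPM in Dcl2. At the sparse end, Cluster_40629 on chromosome 4 had 14.8 CPM per kb over 6947 bp. Cluster_37436, on the same chromosome, had 15.4 CPM per kb over 7236 bp.

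Between dcl2T and Dcl2, few of the loci differed. Calls required an adjusted p no higher than 0.01 and a log2 fold change of 2 or more either way. They came from the quasi-likelihood F-test of edgeR, with Benjamini-Hochberg correction across the 22558 tested clusters. No locus was called lower in dcl2T, where the background of all tested clusters was 0.00887%, and 2 were called higher, where the background was 0.0177%. Of the 2, 1 reached 100 CPM in dcl2T alone and 1 in dcl2T and dcl2-mu1 but not in Dcl2. Their entry into the set thus leaned on the genotypes where they were high. Among the 530 loci at 100 CPM in every genotype, 0 were called higher, also at the wider limit that follows. With an adjusted p of up to 0.05 and any fold, edgeR gave 0 lower loci against a background of 0.0177%, and 7 higher loci against 0.0532%, which were Cluster_26293, Cluster_2445, Cluster_84756, Cluster_31406, Cluster_946, Cluster_10926 and Cluster_135. At an unadjusted p under 0.05, 25 loci were lower and 40 higher, and DESeq2 called 3 lower and 16 higher. No share over all tested clusters was taken for these counts or for the refits below, so they are not read as results about the loci. Most loci were close: 80.3% of the 654 had a fitted log2 fold change within 0.5 of 0, against 41.4% of all tested clusters. The loci were chosen for abundance and the tested clusters reach down to the count filter, so these shares are not compared at like counts. The median log2 fold change was -0.10 over the loci and 0.07 over all tested clusters, and on library size alone these medians were 0.07 and 0.25. In CPM, both dcl2T libraries lay below both Dcl2 libraries at 67 loci (10.2%, background 11.9%) and above them at 203 (31.0%, background 27.5%), shares near those of all tested clusters. With only the dcl2T and Dcl2 libraries in the fit, edgeR called 1 locus lower and 0 higher, while 48 lower and 41 higher loci had an unadjusted p under 0.05. Leaving out 1 library gave between 4 and 18 higher calls, with 18 without dcl2T replicate 1, 16 without dcl2T replicate 2, 17 without either dcl2-mu1 library, 4 without Dcl2 replicate 1 and 14 without Dcl2 replicate 2. The lower calls came to between 1 and 8 in the same refits, with 6 without dcl2-mu1 replicate 1.

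Cluster_26293 (chromosome 3, 104459965 to 104460160, 196 bp) had reads in dcl2T alone. It had 339.9 and 417 CPM in dcl2T and 0 CPM in all dcl2-mu1 and Dcl2 libraries. With a floor of 3 counts summed over both Dcl2 libraries, its mean was at least 1055-fold higher in dcl2T than in Dcl2 (adjusted p = 0.00327, edgeR quasi-likelihood, Benjamini-Hochberg). It entered the set through dcl2T alone, so the rule had already selected this difference. Cluster_2445 (chromosome 1, 53114841 to 53116920, 2080 bp) was high in both mutants. It had 129 and 126 CPM in dcl2T, 231 and 169 CPM in dcl2-mu1 and 5.04 and 5.69 CPM in Dcl2, with log2 fold change 4.41, SE 0.36, adjusted p = 0.00472 for dcl2T against Dcl2 and log2 fold change 4.82, SE 0.37, adjusted p = 4.87e-04 for dcl2-mu1 against Dcl2 in the same edgeR test. Its dcl2-mu1 and dcl2T libraries did not overlap either, at 1.56 times, but that difference was not called (adjusted p = 0.653, edgeR quasi-likelihood). The call for dcl2T against Dcl2 was lost without Dcl2 replicate 1, where edgeR gave adjusted p = 0.0119, with TMM factors over all clusters (0.0104) and with the 2 genotypes alone (0.0278).

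Between dcl2-mu1 and Dcl2, changes were more frequent and went both ways. The same edgeR test called 14 loci lower in dcl2-mu1, or 2.14% of the 654, against 0.186% of all tested clusters. It called 22 higher, or 3.36%, against 0.235%. With an adjusted p of up to 0.05 and any fold, edgeR gave 26 lower loci (background 0.754%) and 34 higher loci (0.674%). In CPM, both dcl2-mu1 libraries lay below both Dcl2 libraries at 135 loci (20.6%, background 22.7%) and above them at 201 (30.7%, background 20.6%). Of the calls, only 3 lower and 3 higher fell among the 530 loci that reached 100 CPM in every genotype. The counts moved with the libraries used, since the lower calls came to 73 without dcl2-mu1 replicate 2 and to 27 without either dcl2T library, and the higher calls to 34 without either dcl2T library. Without the shallow dcl2-mu1 replicate 1 they were 17 lower and 33 higher. With only the dcl2-mu1 and Dcl2 libraries in the fit, 0 loci were called in either direction, while 91 lower and 54 higher loci had an unadjusted p under 0.05. Shares over all tested clusters were not taken for these refits. The median log2 fold change was -0.20 over the loci and -0.30 over all tested clusters, and scaling by library size alone moved these medians to 0.14 and 0.02, so no direction is read for the loci as a whole. Without dcl2-mu1 replicate 2 the medians were -0.81 and -3.21, so the lower calls of that refit came with a fall across all tested clusters.

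The 14 loci lower in dcl2-mu1 had high levels in dcl2T. Their CPM summed to 1078 and 1224 in dcl2-mu1, 12365 and 12297 in dcl2T, and 11589.9 and 13438 in Dcl2. In all 14, both dcl2-mu1 libraries lay below every library of the other genotypes. Their dcl2T mean was between 0.354 and 1.62 times the Dcl2 mean, with a median of 1.16. Of the 14, 11 reached a mean of 100 CPM in dcl2T and Dcl2 but not in dcl2-mu1. The entry of these 11 into the set thus leaned on high values in dcl2T and Dcl2, so the high dcl2T level is partly set by the rule. On chromosome 10 there were 7 of the 14, a chromosome that holds 62 of the 654 loci. Lengths ran from 181 to 7620 bp.

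Among these, 3 loci were neighbours on chromosome 10, between 143144995 and 143169480. Cluster_84523 (chromosome 10, 143144995 to 143149789, 4795 bp) had 79.0 and 48.2 CPM in dcl2-mu1, 2048 and 1885 CPM in dcl2T and 1574 and 1688 CPM in Dcl2. The dcl2-mu1 mean was 25.6-fold lower than the Dcl2 mean (log2 fold change -5.09, SE 0.30, adjusted p = 9.78e-05, edgeR quasi-likelihood, Benjamini-Hochberg). Cluster_84525 (chromosome 10, 143154089 to 143161708, 7620 bp) was 52.5-fold lower in dcl2-mu1 than in Dcl2, with 28.7 and 14.4 CPM in dcl2-mu1, 1546 and 1107 CPM in dcl2T and 1105 and 1163 CPM in Dcl2. Cluster_84526 (chromosome 10, 143165976 to 143169480, 3505 bp) had 30.8 and 18.9 CPM in dcl2-mu1, 673 and 561 CPM in dcl2T and 701 and 638 CPM in Dcl2. The 3 loci summed to 138.5 and 81.5 CPM in dcl2-mu1, 4266 and 3553 CPM in dcl2T, and 3380.0 and 3489 CPM in Dcl2.

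Elsewhere on chromosome 10, Cluster_81927 (chromosome 10, 85381796 to 85385385, 3590 bp) had 147 and 145 CPM in dcl2-mu1, 1488 and 1546 CPM in dcl2T and 1306 and 1842 CPM in Dcl2, which is 10.8-fold lower in dcl2-mu1 than in Dcl2. Cluster_84035 (chromosome 10, 133948831 to 133951863, 3033 bp) kept 20.5% of its Dcl2 level, with 326 and 395 CPM in dcl2-mu1, 1519 and 1501 CPM in dcl2T and 1659 and 1850.1 CPM in Dcl2. The short Cluster_83347 (chromosome 10, 118703684 to 118703864, 181 bp) had 261 and 367 CPM in dcl2-mu1, 786 and 648 CPM in dcl2T and 1335 and 2714 CPM in Dcl2, and its dcl2T libraries also lay below both Dcl2 libraries. That difference in dcl2T was not called (log2 fold change -1.63, SE 0.39, adjusted p = 0.384, edgeR quasi-likelihood). Cluster_79293 (chromosome 10, 9086448 to 9089031, 2584 bp), the seventh on this chromosome, had 13.3 and 7.10 CPM in dcl2-mu1, 338 and 400.2 CPM in dcl2T and 456 and 549.6 CPM in Dcl2.

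On the other chromosomes, Cluster_57455 (chromosome 6, 166466808 to 166467371, 564 bp) was unread in both libraries of dcl2-mu1. It had 388 and 413 CPM in dcl2T and 349 and 351 CPM in Dcl2, at least 703-fold lower in dcl2-mu1 than in Dcl2 with a floor of 3 counts summed over both dcl2-mu1 libraries. Cluster_40889 on chromosome 4 had 9.74 and 1.47 CPM in dcl2-mu1, 449 and 453 CPM in dcl2T and 294 and 352 CPM in Dcl2, and Cluster_72632 on chromosome 9 had 15.4 and 2.69 CPM in dcl2-mu1, 223 and 463 CPM in dcl2T and 274 and 458 CPM in Dcl2. Both kept a few reads in dcl2-mu1, more in replicate 1 than in replicate 2. Cluster_2006 (chromosome 1, 42246550 to 42251583, 5034 bp) had 46.7 and 95.5 CPM in dcl2-mu1, 1512 and 1460.4 CPM in dcl2T and 912 and 923 CPM in Dcl2, and Cluster_47242 on chromosome 5 had 52.3 and 63.4 CPM in dcl2-mu1, 387 and 498 CPM in dcl2T and 325 and 261 CPM in Dcl2. Cluster_47242 was not called without Dcl2 replicate 1 (adjusted p = 0.0163, edgeR quasi-likelihood).

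The last 2 of the 14 gave nearly the same value in each library although they lie on different chromosomes. Cluster_5748 (chromosome 1, 150770916 to 150771134, 219 bp) had 35.9 and 30.6 CPM in dcl2-mu1, 512 and 675 CPM in dcl2T and 648 and 331 CPM in Dcl2. Cluster_15214 (chromosome 2, 56345842 to 56346760, 919 bp) had 32.8 and 34.8 CPM in dcl2-mu1, 497 and 686 CPM in dcl2T and 652 and 317 CPM in Dcl2. Their CPM differed by at most 0.18 on the log2 scale in any library. Whether reads that align to both places were split between them was not tested, and they may not be independent loci. Within chromosome 8, Cluster_65350 had nearly the same values as Cluster_65346 and as Cluster_65348. These loci were not called, and Cluster_65346 had 46.7 and 142 CPM in dcl2-mu1, 64.5 and 64.2 CPM in dcl2T and 176 and 205 CPM in Dcl2.

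**Figure D3:**
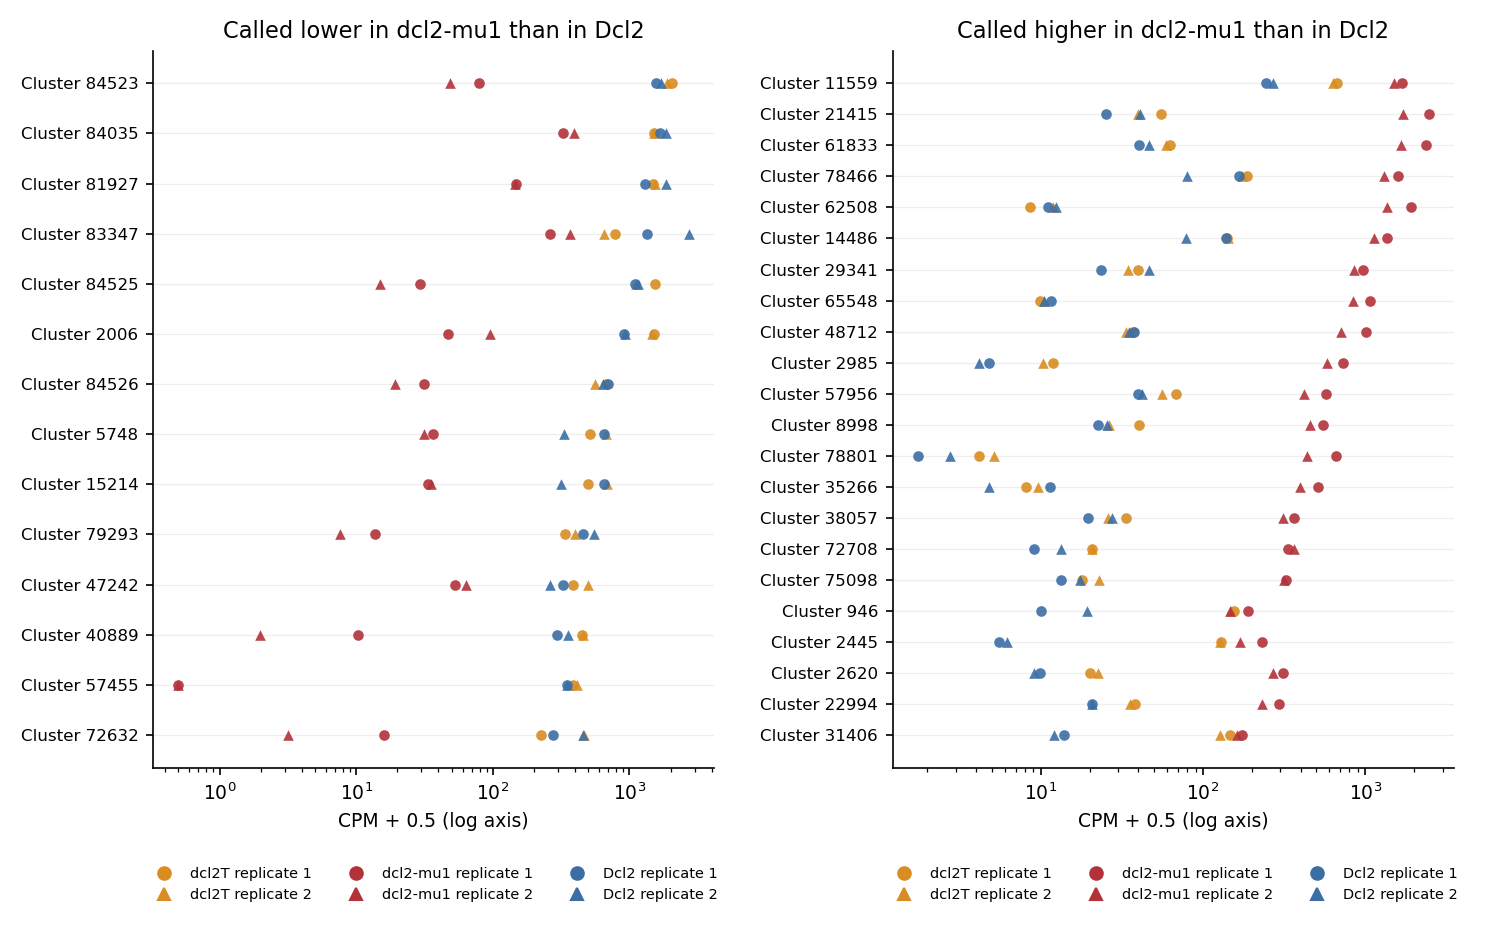
The 14 loci called lower (left) and the 22 called higher (right) in dcl2-mu1 than in Dcl2 are listed from high to low mean CPM, with CPM plus 0.5 in each of the 6 libraries on a log axis. Colours mark genotypes, circles replicate 1 and triangles replicate 2. On the left the dcl2-mu1 points lie apart at the low end, on the right dcl2-mu1 is at the high end, and at Cluster_2445, Cluster_946 and Cluster_31406 dcl2T lies near it.

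The 22 loci higher in dcl2-mu1 were low in Dcl2, and their means ran from 168 to 2083 CPM in dcl2-mu1, against 1.77 to 257 CPM in Dcl2. Their CPM summed to 19645 and 15320.3 in dcl2-mu1, 1898 and 1767 in dcl2T, and 871 and 816 in Dcl2. The dcl2-mu1 mean was between 6.19 and 309 times the Dcl2 mean. None was shorter than 1526 bp, and none lay on chromosome 10 or chromosome 6. Of the 22, 16 reached a mean of 100 CPM in dcl2-mu1 alone, so their entry into the set already required a high dcl2-mu1 value. Both dcl2T libraries exceeded both Dcl2 libraries at 15 of the 22, and the dcl2T mean had a median of 1.45 times the Dcl2 mean. The same order held at 27.5% of all tested clusters and at 31.0% of the 654 loci. The 22 were called against the same Dcl2 libraries, which favours low Dcl2 values, so the 15 are partly set by that choice.

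Cluster_11559 (chromosome 1, 287046634 to 287049249, 2616 bp) was the most abundant of them, highest in dcl2-mu1 and lowest in Dcl2. It had 1677 and 1509 CPM in dcl2-mu1, 674 and 636 CPM in dcl2T and 244 and 270.2 CPM in Dcl2, 6.19 times as much in dcl2-mu1 as in Dcl2 (log2 fold change 2.26, SE 0.26, adjusted p = 0.00444, edgeR quasi-likelihood, Benjamini-Hochberg). This call was lost in 3 of 6 refits of edgeR that left out a library, with adjusted p = 0.146 without Dcl2 replicate 1, 0.0972 without Dcl2 replicate 2 and a log2 fold change of 1.78 without dcl2-mu1 replicate 2, and with TMM factors over all clusters (adjusted p = 0.0142). For dcl2T against Dcl2 it was 2.55 times and not called (adjusted p = 0.293, edgeR quasi-likelihood). Cluster_78466 (chromosome 9, 157431441 to 157438656, 7216 bp) and Cluster_14486 (chromosome 2, 37186047 to 37191525, 5479 bp) also had a sizeable level in every genotype. Cluster_78466 had 1586 and 1308 CPM in dcl2-mu1, 187 and 173 CPM in dcl2T and 166 and 79.7 CPM in Dcl2, and Cluster_14486 had 1361 and 1139 CPM in dcl2-mu1, 139 and 142 CPM in dcl2T and 138 and 78.3 CPM in Dcl2. Without Dcl2 replicate 2 neither was called by edgeR, at adjusted p = 0.0323 for Cluster_78466 and 0.0276 for Cluster_14486.

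Other loci had few reads outside dcl2-mu1. Cluster_62508 (chromosome 7, 133160491 to 133163018, 2528 bp) had 1912 and 1354 CPM in dcl2-mu1, 8.03 and 11.4 CPM in dcl2T and 10.6 and 11.8 CPM in Dcl2, 146 times as much in dcl2-mu1 as in Dcl2. Cluster_21415 (chromosome 2, 222968835 to 222974755, 5921 bp) had 2458 and 1708 CPM in dcl2-mu1, 54.6 and 39.2 CPM in dcl2T and 24.7 and 40.3 CPM in Dcl2. Cluster_61833 (chromosome 7, 115826095 to 115830018, 3924 bp) had 2361 and 1651 CPM in dcl2-mu1, 61.7 and 58.7 CPM in dcl2T and 40.1 and 45.8 CPM in Dcl2. In these 3 loci the dcl2T mean was between 0.866 and 1.44 times the Dcl2 mean. The largest ratio was at Cluster_78801 (chromosome 9, 162314689 to 162316999, 2311 bp), with 657 and 434 CPM in dcl2-mu1, 3.67 and 4.67 CPM in dcl2T and 1.26 and 2.28 CPM in Dcl2, which is 309 times (log2 fold change 7.85, SE 0.45, adjusted p = 9.78e-05, edgeR quasi-likelihood, Benjamini-Hochberg). Cluster_65548 on chromosome 8 had 1066 and 839.9 CPM in dcl2-mu1, 9.41 and 9.96 CPM in dcl2T and 11.1 and 10.0 CPM in Dcl2, and Cluster_2985 on chromosome 1 had 728 and 584 CPM in dcl2-mu1, 11.5 and 9.75 CPM in dcl2T and 4.29 and 3.64 CPM in Dcl2.

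At 3 of the 22 loci dcl2T also stood far above Dcl2, at a level nearer to dcl2-mu1 than to Dcl2. They were Cluster_2445, Cluster_946 (chromosome 1, 17405443 to 17408904, 3462 bp) and Cluster_31406 (chromosome 3, 230068591 to 230073435, 4845 bp). Cluster_946 had 189.7 and 147 CPM in dcl2-mu1, 155 and 148 CPM in dcl2T and 9.58 and 18.9 CPM in Dcl2, and Cluster_31406 had 174 and 162 CPM in dcl2-mu1, 147 and 126 CPM in dcl2T and 13.4 and 11.6 CPM in Dcl2. For dcl2T against Dcl2, Cluster_946 missed the threshold with an adjusted p of 0.0302 and Cluster_31406 with 0.0193 in edgeR's quasi-likelihood test. For dcl2-mu1 against Dcl2, edgeR lost the call at Cluster_946 without Dcl2 replicate 1 (adjusted p = 0.0746) and at Cluster_31406 without Dcl2 replicate 1 (0.0205) or Dcl2 replicate 2 (0.0168). Cluster_84756 (chromosome 10, 146832941 to 146837509, 4569 bp) was of the same kind without a call, with 434 and 245 CPM in dcl2-mu1, 595 and 639.6 CPM in dcl2T and 47.4 and 75.8 CPM in Dcl2, where edgeR gave adjusted p = 0.017 for dcl2-mu1 and 0.0134 for dcl2T, each against Dcl2. Cluster_65755 on chromosome 8 had 349 and 334 CPM in dcl2-mu1, 449.8 and 475 CPM in dcl2T and 28.5 and 92.0 CPM in Dcl2, and Cluster_83924 on chromosome 10 had 186 and 241 CPM in dcl2-mu1, 189 and 193 CPM in dcl2T and 8.82 and 31.2 CPM in Dcl2. In all of these both mutants lay above both Dcl2 libraries. Both comparisons share the Dcl2 libraries, so the ratios of both mutants rest on the same Dcl2 values.

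**Figure D4:**
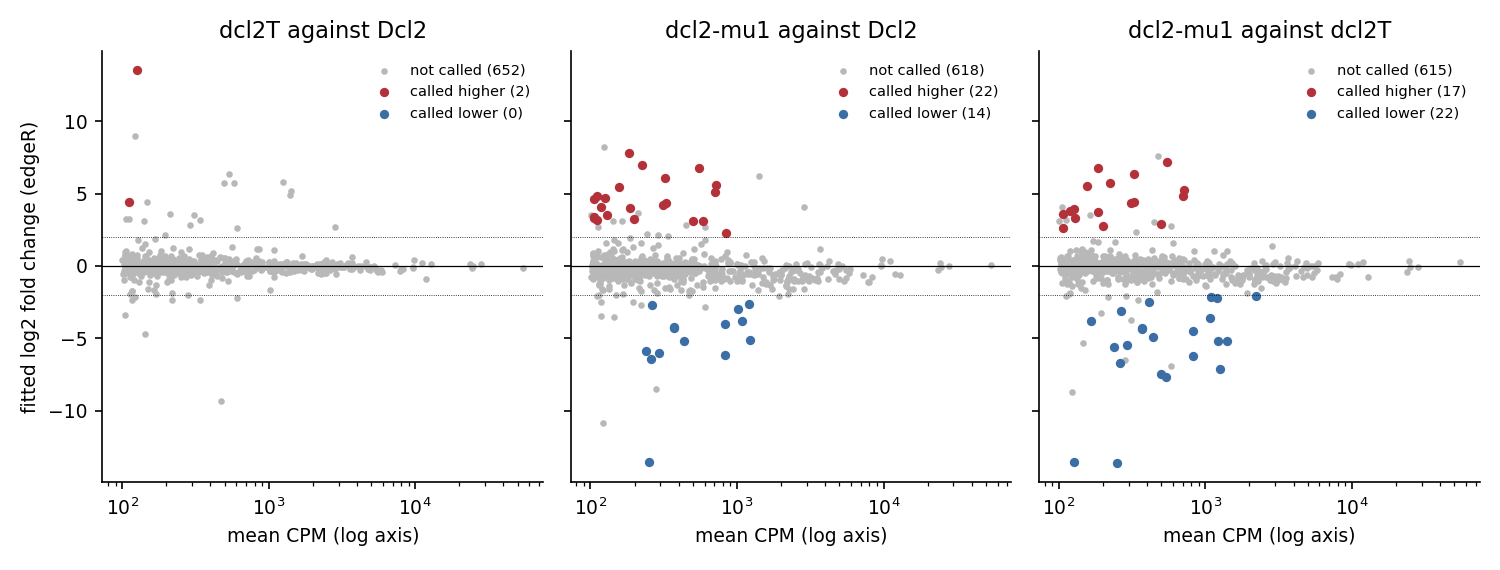
Each of the 654 loci is plotted by its mean CPM (log axis) and its fitted log2 fold change for dcl2T against Dcl2, dcl2-mu1 against Dcl2 and dcl2-mu1 against dcl2T, with red for higher and blue for lower calls and dotted lines at 2 and -2. The panels hold 2, 36 and 39 called loci, and no locus above 5000 CPM is called in any panel.

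Between dcl2-mu1 and dcl2T the test called 22 loci lower in dcl2-mu1, or 3.36%, against a background of 0.199%, and 17 higher, or 2.60%, against 0.164%. Of the lower loci, 13 were also lower than in Dcl2, which is 59.1% of the 22 and 92.9% of the 14. All 17 higher loci were also higher than in Dcl2, which is 77.3% of those 22. Both comparisons use the same dcl2-mu1 libraries, so these shares are counts only. With an adjusted p of up to 0.05 and any fold, edgeR gave 27 lower loci (background 0.448%) and 24 higher loci (0.403%). In CPM, both dcl2-mu1 libraries lay below both dcl2T libraries at 179 loci (27.4%, background 29.7%) and above them at 229 (35.0%, background 17.8%). The loci were chosen for abundance, so these shares are not compared at like counts. The median log2 fold change was -0.10 over the loci and -0.37 over all tested clusters. Library size alone moved these medians to 0.08 and -0.22, so no direction is read for the loci as a whole. Without dcl2-mu1 replicate 2 the medians were -0.69 and -3.94. The lower calls came to 59 without dcl2-mu1 replicate 2, and to between 25 and 29 without any other library, and the higher calls to between 23 and 25 without any 1 library. Without dcl2-mu1 replicate 1 they were 25 lower and 24 higher. Only 1 higher and 6 lower calls fell among the 530 loci at 100 CPM in every genotype. At 16 of the 17 higher loci only dcl2-mu1 reached 100 CPM, and at 5 of the 22 lower loci only dcl2T did. For these the rule had already selected a difference. Another 11 of the lower loci reached 100 CPM in dcl2T and Dcl2 but not in dcl2-mu1. With the 2 genotypes fitted alone, 0 loci were called in either direction, and 99 lower and 46 higher loci had an unadjusted p under 0.05 in edgeR's test. For these refits too, shares over all tested clusters were not taken.

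The 9 loci lower in dcl2-mu1 than in dcl2T but not called lower than in Dcl2 stood high in dcl2T. At 5 of the 9 only dcl2T reached a mean of 100 CPM, so the rule had already selected a high dcl2T level there. Cluster_83472 (chromosome 10, 121825370 to 121833474, 8105 bp) was the most abundant of the 9, with 947 and 829 CPM in dcl2-mu1, 3368 and 3015 CPM in dcl2T and 2448 and 2799 CPM in Dcl2. It was also lower against Dcl2, at 0.00642 for the adjusted p of edgeR, but its log2 fold change of -1.93 missed the fold limit. Its call against dcl2T was lost without dcl2-mu1 replicate 1 (log2 fold change -1.99) and without Dcl2 replicate 1 (adjusted p = 0.0125, edgeR quasi-likelihood). Cluster_24383 (chromosome 3, 42774377 to 42783884, 9508 bp) was intermediate in Dcl2, with 501 and 495 CPM in dcl2-mu1, 2006 and 1905 CPM in dcl2T and 726 and 896 CPM in Dcl2. Cluster_53553 on chromosome 6 had the same order, with 146 and 153 CPM in dcl2-mu1, 784 and 681 CPM in dcl2T and 363 and 357 CPM in Dcl2, as did Cluster_47603 on chromosome 5, with 33.3 and 30.1 CPM in dcl2-mu1, 522 and 226 CPM in dcl2T and 80.7 and 110.2 CPM in Dcl2. Cluster_26293 was in the list through its reads in dcl2T alone. With TMM factors over all clusters, edgeR lost the calls against dcl2T at Cluster_83472 (adjusted p = 0.0159), Cluster_24383 (0.0165), Cluster_53553 (0.0138) and Cluster_47603 (0.0114). On library size alone, Cluster_83472 and Cluster_24383 missed the fold limit, with log2 fold changes of -1.87 and -1.99.

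The other 4 of the 9 lay in 2 stretches of chromosome 1 where the dcl2T replicates themselves were far apart. Near 2.83 Mb, Cluster_135 (chromosome 1, 2829843 to 2832703, 2861 bp) had 28.2 and 34.0 CPM in dcl2-mu1, 6060.0 and 1318 CPM in dcl2T and 76.9 and 42.3 CPM in Dcl2, and Cluster_138 (chromosome 1, 2849386 to 2850706, 1321 bp) had 4.10 and 12.7 CPM in dcl2-mu1, 2643 and 524 CPM in dcl2T and 22.2 and 13.2 CPM in Dcl2. Near 271 Mb, Cluster_10926 (chromosome 1, 271437619 to 271441981, 4363 bp) had 7.69 and 10.8 CPM in dcl2-mu1, 2381 and 530.0 CPM in dcl2T and 24.7 and 24.1 CPM in Dcl2, and Cluster_10929 (chromosome 1, 271470963 to 271476195, 5233 bp) had 125 and 129.5 CPM in dcl2-mu1, 6519.6 and 1373 CPM in dcl2T and 119 and 123 CPM in Dcl2. In all 4, dcl2T replicate 1 exceeded dcl2T replicate 2 by between 2.17 and 2.33 on the log2 scale, and both dcl2T libraries were above every other library. With TMM factors over all clusters, edgeR lost the calls at Cluster_138 (adjusted p = 0.0138) and Cluster_10929 (0.0151). Cluster_136 beside Cluster_135 had the same pattern and 4.62 and 25.5 CPM in dcl2-mu1, 2744 and 664 CPM in dcl2T and 36.3 and 20.3 CPM in Dcl2, but was not called (adjusted p = 0.0198, edgeR quasi-likelihood). Cluster_10927 and Cluster_10928 beside Cluster_10929 had 1230.0 and 364 CPM and 652 and 171 CPM in dcl2T, against 61.0 and 62.8 CPM and 20.4 and 13.4 CPM in Dcl2. Against Dcl2, the excess in dcl2T was 61.9-fold at Cluster_135 and 59.6-fold at Cluster_10926, for which edgeR gave adjusted p = 0.0491 and 0.0417, outside the limit of 0.01. The 5 largest coefficients of variation of the 654 loci were those of Cluster_138, Cluster_135, Cluster_10926, Cluster_136 and Cluster_10929, from 183% to 196%.

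Replicates agreed closely at most loci, and a small set did not. The median difference between replicates was 0.17 on the log2 scale in dcl2T, 0.31 in dcl2-mu1 and 0.42 in Dcl2, after 0.5 CPM was added. Over all tested clusters it was 0.61, 1.30 and 0.87 in the same order of genotypes. The loci were chosen for abundance, so the medians are not compared at like counts. In at least 1 genotype, 38 of the 654 loci (5.81%) had replicates 4-fold or more apart, and 12 of them had this in more than 1 genotype. Such loci numbered 27 in dcl2-mu1, 14 in dcl2T, and 13 in the Dcl2 libraries. Of the 27, 23 were higher in replicate 2, the deeper of the dcl2-mu1 libraries.

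Some of these loci had many reads in some libraries and few or none in others, across genotypes. The 79-bp Cluster_36262 (chromosome 4, 117785698 to 117785776, 79 bp) had 40.5 and 5597 CPM in dcl2-mu1, 27.5 and 2742 CPM in dcl2T and 27.2 and 40.1 CPM in Dcl2. Cluster_7095 (chromosome 1, 185479023 to 185484447, 5425 bp) had 266 and 11656 CPM in dcl2-mu1, 124 and 4431 CPM in dcl2T and 288 and 321 CPM in Dcl2. Both were thus high in replicate 2 of dcl2-mu1 and in replicate 2 of dcl2T and low in all other libraries, and neither was called. Cluster_808 on chromosome 1 had 0 and 629.5 CPM in dcl2-mu1, 81.9 and 511 CPM in dcl2T and 41.1 and 0 CPM in Dcl2, and Cluster_52862 on chromosome 6 had 0 and 431 CPM in dcl2-mu1, 351 and 498.5 CPM in dcl2T and 572 and 0 CPM in Dcl2.

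Near the start of chromosome 5, between 1.08 and 1.14 Mb, 4 loci each had their own pattern of absent libraries. Cluster_41970 (chromosome 5, 1100743 to 1101764, 1022 bp) had 0 and 732 CPM in dcl2-mu1, 1.38 and 2.24 CPM in dcl2T and 1141 and 958 CPM in Dcl2. Its neighbour Cluster_41971 (chromosome 5, 1102755 to 1103019, 265 bp) had 0 and 0.245 CPM in dcl2-mu1, 0 and 152 CPM in dcl2T and 334 and 247 CPM in Dcl2. Cluster_41969 had no read in dcl2-mu1 replicate 1 and 111 and 307 CPM in Dcl2, and Cluster_41975 had 0.756 and 537 CPM in Dcl2 while its other 4 libraries held between 430.2 and 504 CPM. None of the 4 was called. Cluster_16558 on chromosome 2 had 0 and 3.67 CPM in dcl2-mu1, 357 and 4.47 CPM in dcl2T and 630.1 and 696 CPM in Dcl2, and Cluster_31656 on chromosome 3 had 0 and 274 CPM in dcl2-mu1, 188 and 276 CPM in dcl2T and 0.756 and 0 CPM in Dcl2.

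**Figure D5:**
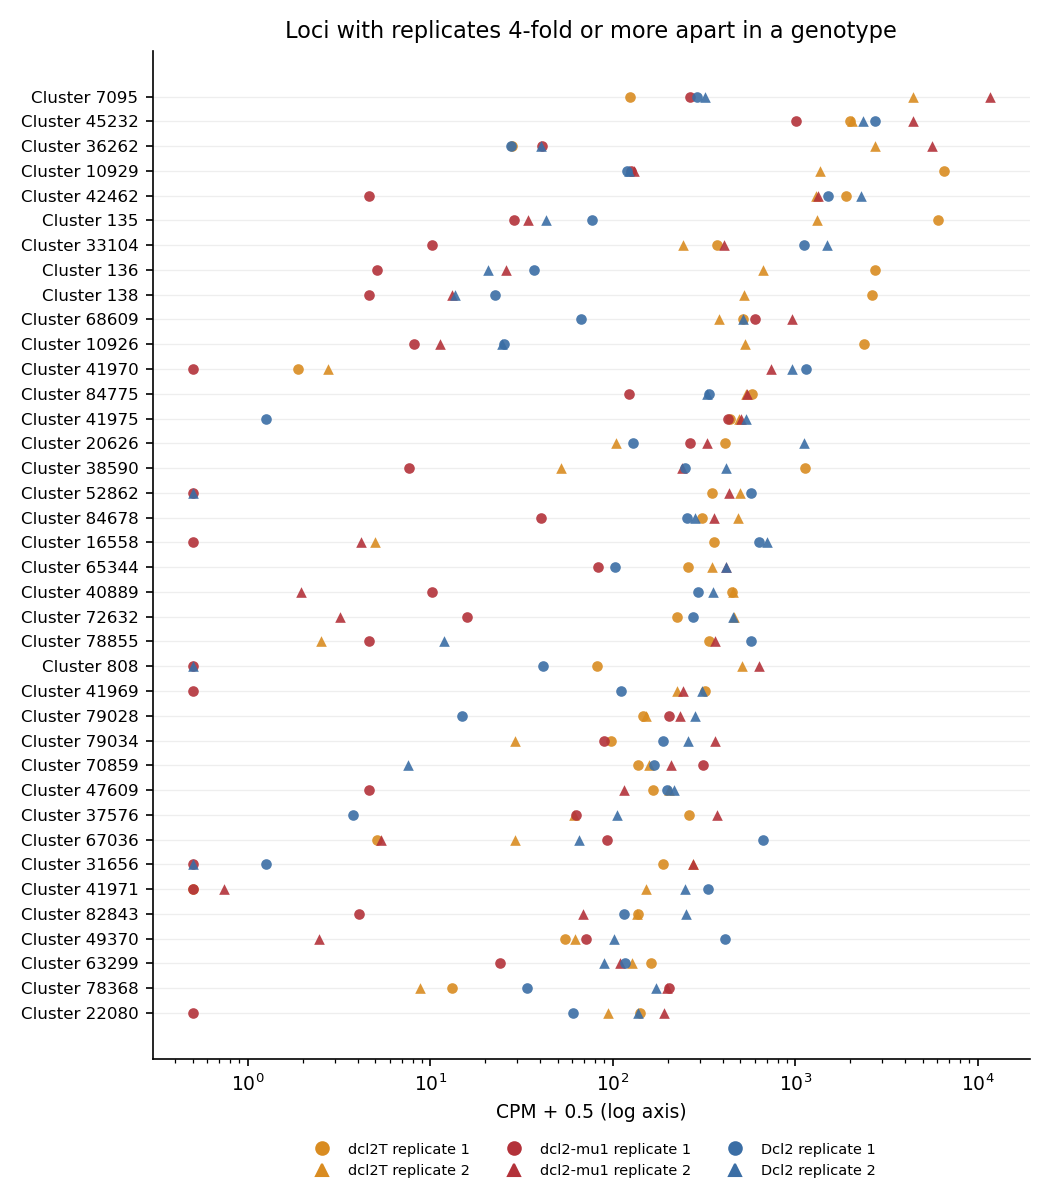
The 38 loci with replicates 4-fold or more apart in at least 1 genotype are listed from high to low mean CPM, with CPM plus 0.5 in each library on a log axis. Colours mark genotypes, circles replicate 1 and triangles replicate 2. Cluster_7095 and Cluster_36262 have their dcl2T and dcl2-mu1 triangles at the right, and Cluster_135, Cluster_136, Cluster_138, Cluster_10926 and Cluster_10929 have both dcl2T points at the right.

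Some loci lay next to each other. A gap of at most 10 kb joined 161 of 654 loci (24.6%) into 71 runs of 2 or more, of which 8 held 3 or more. The largest runs held 7 loci each. On chromosome 4, between 6205129 and 6231641, 7 loci summed to 11338 and 12957 CPM in dcl2-mu1, 15990.1 and 18251 CPM in dcl2T, and 17319.6 and 15296 CPM in Dcl2. Their log2 fold changes for dcl2-mu1 against Dcl2 ran from -1.56 to -0.30, and none was called. On chromosome 10, between 3702005 and 3715599, 7 loci summed to 1566 and 1496 CPM in dcl2-mu1, 1089 and 1365 CPM in dcl2T, and 961 and 1726 CPM in Dcl2. Both dcl2-mu1 sums lay above both dcl2T sums, and the Dcl2 sums spanned those of both mutants. A run of 6 lay about 50 kb further on and was also uncalled. The loci were found on every chromosome, from 35 on chromosome 9 to 118 on chromosome 1, and made up between 1.94% of the tested clusters on chromosome 9 and 3.97% on chromosome 10.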

How the data were processed

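Small RNA libraries from pollen of 3 genotypes (dcl2T, dcl2-mu1, Dcl2) with 2 replicates each were analysed, and groups and replicate numbers came from the labels. Another 14 samples of the series were left aside. The authors trimmed adapters with cutadapt, removed reads of structural RNAs with Bowtie2, and grouped the aligned reads into clusters with ShortStack above a minimum abundance. What the authors deposited are raw read counts for every cluster in each library, unnormalized and pooled over read lengths. The genome build of the table, and how reads with several equal alignments were placed, are not given in the sources used here. Coordinates follow that table, and no annotation or sequence was attached. The authors' column of total counts, equal to the sum over 6 libraries throughout, had no further use.

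CPM was computed on total counts, and loci longer than 50 bp and shorter than 10 kb that averaged 100 CPM or more were kept. The loci and all lists were chosen with earlier results of these data known. The loci named are the 10 most abundant, up to 6 called loci per comparison and direction by mean CPM, the 4 with the smallest and the 4 with the largest coefficient of variation, the 2 densest and 2 sparsest, and those beside the limits. Loci named beyond these (other called loci, neighbours, loci low in 1 genotype and loci with discordant replicates) were chosen after their values were seen.

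Genotypes were compared with edgeR 4.0.16 (R 4.3.3). Clusters had to pass filterByExpr (count of 10, total of 15). Libraries were scaled with TMM factors between 0.836 and 1.30, and a quasi-likelihood model without a replicate term was fitted to all 6. Benjamini-Hochberg adjustment covered 22558 clusters. The thresholds, an adjusted p of 0.01 and a log2 fold change of 2, are those of the study. Each standard error was approximated as the log2 fold change over the root of F. A genotype with 0 counts was given a floor of 3 counts over 2 libraries, between 0.323 and 0.497 CPM. The procedure was tested on simulated data. Replicates differed by more than sampling noise, with chi-square per degree of freedom between 158.1 and 208.0 over the loci, so each library was counted separately. The labels call the samples replicates of a genotype, and p values measure the spread between these libraries. Wilson 95% intervals and floors cover counting error only. Alternatives were other scalings, DESeq2 1.42.0, no filter, the 2 genotypes alone, a replicate block, a wider threshold and leaving out each library. Other limits on CPM and another denominator were tried for the share of counts.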

Additional observations from a re-analysis of the deposited data

How the results depend on the processing

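The counts of calls among the loci moved with several alternatives. Apart from the wider threshold, shares over all tested clusters were not taken for them, so the counts show only how the calls moved. The wider threshold changed both the p and the fold limit, and refits on fewer libraries also changed which clusters passed the filter. Lower calls in dcl2T against Dcl2 (0) became 3 with DESeq2, 8 without a filter, 1 with the 2 genotypes alone, and 1 to 8 when a library was left out. Higher calls in dcl2T (2) became 6 on library size alone, 1 with TMM factors over all clusters, 16 with DESeq2, 20 without a filter, 0 with the 2 genotypes alone, 7 at an adjusted p of 0.05 with any fold, and 4 to 18 when a library was left out. For dcl2-mu1 against Dcl2, the 14 lower calls became 23 with DESeq2, 27 without a filter, 0 with the 2 genotypes alone, 26 at an adjusted p of 0.05, and 15 to 73 when a library was left out. The 22 higher calls became 34 without a filter, 0 with the 2 genotypes alone, 34 at an adjusted p of 0.05, and 18 to 34 when a library was left out. For dcl2-mu1 against dcl2T, the 22 lower calls became 14 with TMM factors over all clusters, 0 with the 2 genotypes alone, and 25 to 59 when a library was left out. The 17 higher calls became 0 with the 2 genotypes alone and 23 to 25 when a library was left out. A genotype left with 1 library was assumed to vary like the others. Without dcl2-mu1 replicate 2, the median log2 fold change of dcl2-mu1 over all tested clusters was -3.21 against Dcl2 and -3.94 against dcl2T. Fewer degrees of freedom remain with the 2 genotypes alone, and the cause of the other shifts was not tested. Over 77 called comparisons of single loci, 1001 refits gave 883 calls in the same direction, 118 below the threshold and none reversed.

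The share of counts in the loci moved with the limit. With at least 50 CPM it was 75.2% in dcl2T, 74.1% in dcl2-mu1 and 69.2% in Dcl2. With at least 200 CPM it was 69.7% in dcl2T, 67.7% in dcl2-mu1 and 64.0% in Dcl2. With 100 CPM required in each genotype it was 69.5%, 68.4% and 64.9% in the same order, and over the tested clusters only it was 75.7%, 73.3% and 68.9%. Leaving out a library gave 72.0% to 73.5% in dcl2T, 70.2% to 72.6% in dcl2-mu1 and 66.3% to 67.4% in Dcl2. Dcl2 was lowest under each of these. On TMM-scaled sizes, 528 loci reached 100 CPM in all genotypes, against 530.

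Libraries with the same number did not deviate together over the tested clusters as a whole, with correlations from -0.01 to 0.00. A correlation over all clusters cannot show whether the numbers pair libraries at single loci. Cluster_7095 and Cluster_36262 were high in replicate 2 of both mutants, and a shared factor was not tested. A replicate block in the edgeR model gave 0 lower and 12 higher calls in dcl2T against Dcl2, 18 and 30 in dcl2-mu1 against Dcl2, and 27 and 23 in dcl2-mu1 against dcl2T. Depth limits a single value at these loci only near 0, since 1 read was worth between 0.203 and 0.513 CPM.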
